A study of Homo sapiens with 12 samples.

Results

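The 36 genes described here encode the steps from glucose uptake to the entry of pyruvate into mitochondria, and were chosen by name from the pathway. They were the transporters SLC2A1 and SLC2A3, the kinases HK1, HK2 and ADPGK, the isomerase GPI, the phosphofructokinases PFKL, PFKM and PFKP, and the regulators PFKFB2, PFKFB3 and PFKFB4. Further members were ALDOA, ALDOC, TPI1, GAPDH, PGK1, PGAM1, ENO1, ENO2 and ENO3, the lactate genes LDHA, LDHB, SLC16A1 and SLC16A3, and the pyruvate carrier genes MPC1 and MPC2. The pyruvate dehydrogenase genes PDHA1, PDHB and DLAT, their kinase genes PDK1, PDK2, PDK3 and PDK4, and PCK2 and FBP1, which act in the reverse, gluconeogenic direction, completed the list. Each of the 36 was found in both deposited tables, which share 60558 gene identifiers, and all 36 passed the filter on low counts in both experiments.

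MDA-MB-231 is an established human triple-negative breast cancer (TNBC) cell line. Poly(A) RNA was sequenced from 12 libraries in 2 experiments that share no library, each with 3 negative control (NC) libraries and 3 libraries after knockdown of NONO or of PKM2. Per the design text of the series the knockdowns were made with siRNA, and the NC libraries carry the genotype label WT. NONO is a nuclear RNA- and DNA-binding protein of paraspeckles, and PKM2 is the pyruvate kinase isoform, made by splicing of PKM, that forms pyruvate at the end of glycolysis. All libraries came from 1 cell line, the labels do not say whether replicates came from separate cultures, and P values therefore measure the spread between these libraries, which may be technical.

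In glycolysis, hexokinases trap glucose in the cell, phosphofructokinase commits it to breakdown, and the lower enzymes make ATP and pyruvate. Pyruvate is either reduced to lactate by lactate dehydrogenase and exported, or carried into mitochondria and oxidized by the pyruvate dehydrogenase (PDH) complex, which PDH kinases switch off. Most steps have several isoenzymes from separate genes, and many of these genes are known targets of the hypoxia-inducible factors.

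Depth was 19861762 to 20981712 counts per library in the NONO experiment and 24097948 to 28455268 in the PKM2 experiment. The target of each knockdown was examined first. NONO stood at 391, 358 and 369 CPM (depth-scaled counts, by TMM) in its NC libraries and at 61.8, 64.3 and 61.9 after NONO knockdown. PKM stood at 2276, 2211 and 2324 CPM in NC and at 218, 228 and 234 after PKM2 knockdown, and the counts do not separate its PKM1 and PKM2 forms. The mesenchymal marker VIM lay between 3291 and 4466 TPM (length-scaled transcript abundance) over the 12 libraries, while CDH1, ESR1 and the leukocyte marker PTPRC were at or near 0. PGR was at most 0.41 TPM. Other markers looked up were not at 0. ERBB2 lay between 13.7 and 35.2 TPM and EPCAM between 1.29 and 3.73. The fibroblast marker COL1A1 lay between 2.17 and 9.93 TPM, and the endothelial marker PECAM1 between 0.18 and 2.31. NC replicate 1 of the NONO experiment and knockdown replicate 3 of the PKM2 experiment lay farthest from their replicates.

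Promoter sequence is shown for 4 members that were lowered after PKM2 knockdown, so that the short motifs counted over the group can be seen. All 4 windows hold ACGTG, and lowered members whose windows hold neither motif core are named below. The sequences are RefSeq entries of GRCh38.p14. Each holds the 250 bases before the most upstream start listed there for a gene, printed 5′ to 3′ on the strand of the gene. Capitals mark ACGTG and GCGTG, the cores of the hypoxia response element, on either strand. On the opposite strand they read CACGT and CACGC, and CACGTG, the E-box, holds ACGTG on both strands. ALDOC, the aldolase isoenzyme known from brain, has its window on the minus strand at chr17:28576896-28577145. LDHA, the muscle-type lactate dehydrogenase subunit, has its window on the plus strand at chr11:18394313-18394562. HK2, the inducible hexokinase, has its window on the plus strand at chr2:74833877-74834126. PDHB, the beta subunit of the first PDH enzyme, has its window on the minus strand at chr3:58433833-58434082. The gene positions of GENCODE place the outermost starts of these genes farther upstream. By them the ALDOC window lies wholly inside its gene, which starts at 28577264 on the minus strand. The windows of LDHA, HK2 and PDHB run past the gene starts at 18394388, 74833981 and 58433857.
ALDOC: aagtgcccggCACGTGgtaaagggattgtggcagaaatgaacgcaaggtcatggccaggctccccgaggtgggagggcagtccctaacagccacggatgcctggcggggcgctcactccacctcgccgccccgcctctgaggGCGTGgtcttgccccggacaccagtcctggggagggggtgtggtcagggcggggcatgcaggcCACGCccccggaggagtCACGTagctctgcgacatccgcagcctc
LDHA: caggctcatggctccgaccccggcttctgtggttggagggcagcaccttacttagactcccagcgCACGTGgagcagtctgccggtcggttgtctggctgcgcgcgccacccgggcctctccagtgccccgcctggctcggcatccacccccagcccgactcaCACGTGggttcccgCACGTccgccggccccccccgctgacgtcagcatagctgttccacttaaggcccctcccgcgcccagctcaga
HK2: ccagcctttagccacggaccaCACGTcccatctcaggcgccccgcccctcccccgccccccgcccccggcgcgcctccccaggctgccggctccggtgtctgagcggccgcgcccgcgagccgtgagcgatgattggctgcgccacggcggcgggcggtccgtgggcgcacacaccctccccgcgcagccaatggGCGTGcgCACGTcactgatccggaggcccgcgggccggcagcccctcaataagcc
PDHB: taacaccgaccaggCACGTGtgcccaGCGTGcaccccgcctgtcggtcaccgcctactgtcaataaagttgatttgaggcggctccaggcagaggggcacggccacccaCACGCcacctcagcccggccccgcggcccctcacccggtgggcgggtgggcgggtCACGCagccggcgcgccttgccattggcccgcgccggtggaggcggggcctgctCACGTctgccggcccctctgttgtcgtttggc

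Promoter entries were held for 33 of the 36 members, and none for SLC2A3, SLC16A1 and PFKFB2. ACGTG was present in 11 of the 33 windows, against 18.6% of the 27305 human promoters searched, and GCGTG in 15 of 33, against 31.9%. Those promoters include genes not tested here. Among genes tested in the PKM2 experiment with an entry, 2518 held ACGTG and 8238 did not. For GCGTG, 4868 held it and 5888 did not. Both cores were more frequent there than over all promoters, and the share with GCGTG was close to that of the members. CACGTG was present in 4 of 33, namely ALDOC, GAPDH, LDHA and PDHB, against 6.46% of all promoters. Its share among tested genes was not computed. Of the 11 members with ACGTG, 10 were among the 21 members lowered after PKM2 knockdown, and the other was PGK1, which was not called. Of the 15 with GCGTG, 9 were lowered, 2 were raised and 4 were not called, and 21 of the 33 members with an entry were lowered. Over all genes tested that have an entry, 32.3% of the 2518 with ACGTG and 38.2% of the 8238 without it were lowered. For GCGTG these shares were 37.1% and 36.5%. The windows of HK1, PFKP, SLC2A1, SLC16A3, PDK1, PDK2 and PCK2, which were lowered as well, held neither core. Of these, HK1 has 7 starts listed, SLC16A3 5, PFKP 4, PDK2 3 and PDK1 2. Only the window at the most upstream one was searched, so cores near the other starts would be missed. Cores before a GENCODE start upstream of the window would be missed too, as for PFKP, with its window from 3067720 and its gene from 3066333. These matches describe the letters and do not show binding of any factor, and the counts are given as a description with no test.

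The first comparison asked which steps changed after PKM2 knockdown, relative to its own NC libraries. Of the 36 members, 21 were lowered, 6 were raised and 9 were not called at an adjusted P below 0.05 (quasi-likelihood test of edgeR, Benjamini-Hochberg adjusted over 15524 genes; SE below is the standard error of a log2 change). The lowered members were 58.3% of the list, against 34.7% of all genes tested, and the raised members were 16.7%, against 33.6%. Their median log2 fold change was -0.36, against -0.015 over all genes tested, with a range from -2.52 for ALDOC to 2.15 for SLC16A1. By the cutoffs the authors set in their methods (more than 2-fold, unadjusted P under 0.05), 9 members (25%) changed, against 20.8% of all genes. They were ALDOC, PDK1, PDK2, PFKFB3, SLC16A3, HK2 and PDHB, which fell, and SLC2A3 and SLC16A1, which rose. With trends with gene length and GC content removed, HK2 (-0.98), PFKFB3 (-0.87) and SLC16A3 (-0.84) fell short of a 2-fold change and 6 of the 9 remained past it. The members were expressed above the typical gene, with a median of 88.8 CPM against 21.8 over all genes tested, and expression level was not matched in these shares. In bulk RNA, fewer cells that express a gene and less RNA of it per cell cannot be told apart.

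After NONO knockdown 6 members were lowered (16.7%, against 17.2% of 14832 genes), 3 were raised (8.33%, against 16.2%) and 27 were not called. The lowered share was near that of all genes, and the raised share lay under it. In this experiment too the members were expressed above the typical gene, with a median of 117.5 CPM against 24.2. Expression level was not matched in these shares. The lowered members were HK1, HK2, PFKP, SLC2A1, ENO3 and MPC1, the raised members were PFKL, PGK1 and PDHA1, and the median log2 fold change over the list was -0.056, against -0.011 over all genes. By the cutoffs of the methods 0 members changed in edgeR, against 2.95% of all genes. An unadjusted P below 0.05 was found for 14 members in edgeR, 14 in DESeq2 and 13 in limma on TPM. The share of all genes at that unadjusted P was not computed, so these counts cannot be set against a background. The count depended on NC replicate 1. Without that library 13 members were lowered and 5 raised, against 20.2% and 21% of all genes in the same fit.

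**Figure D1:**
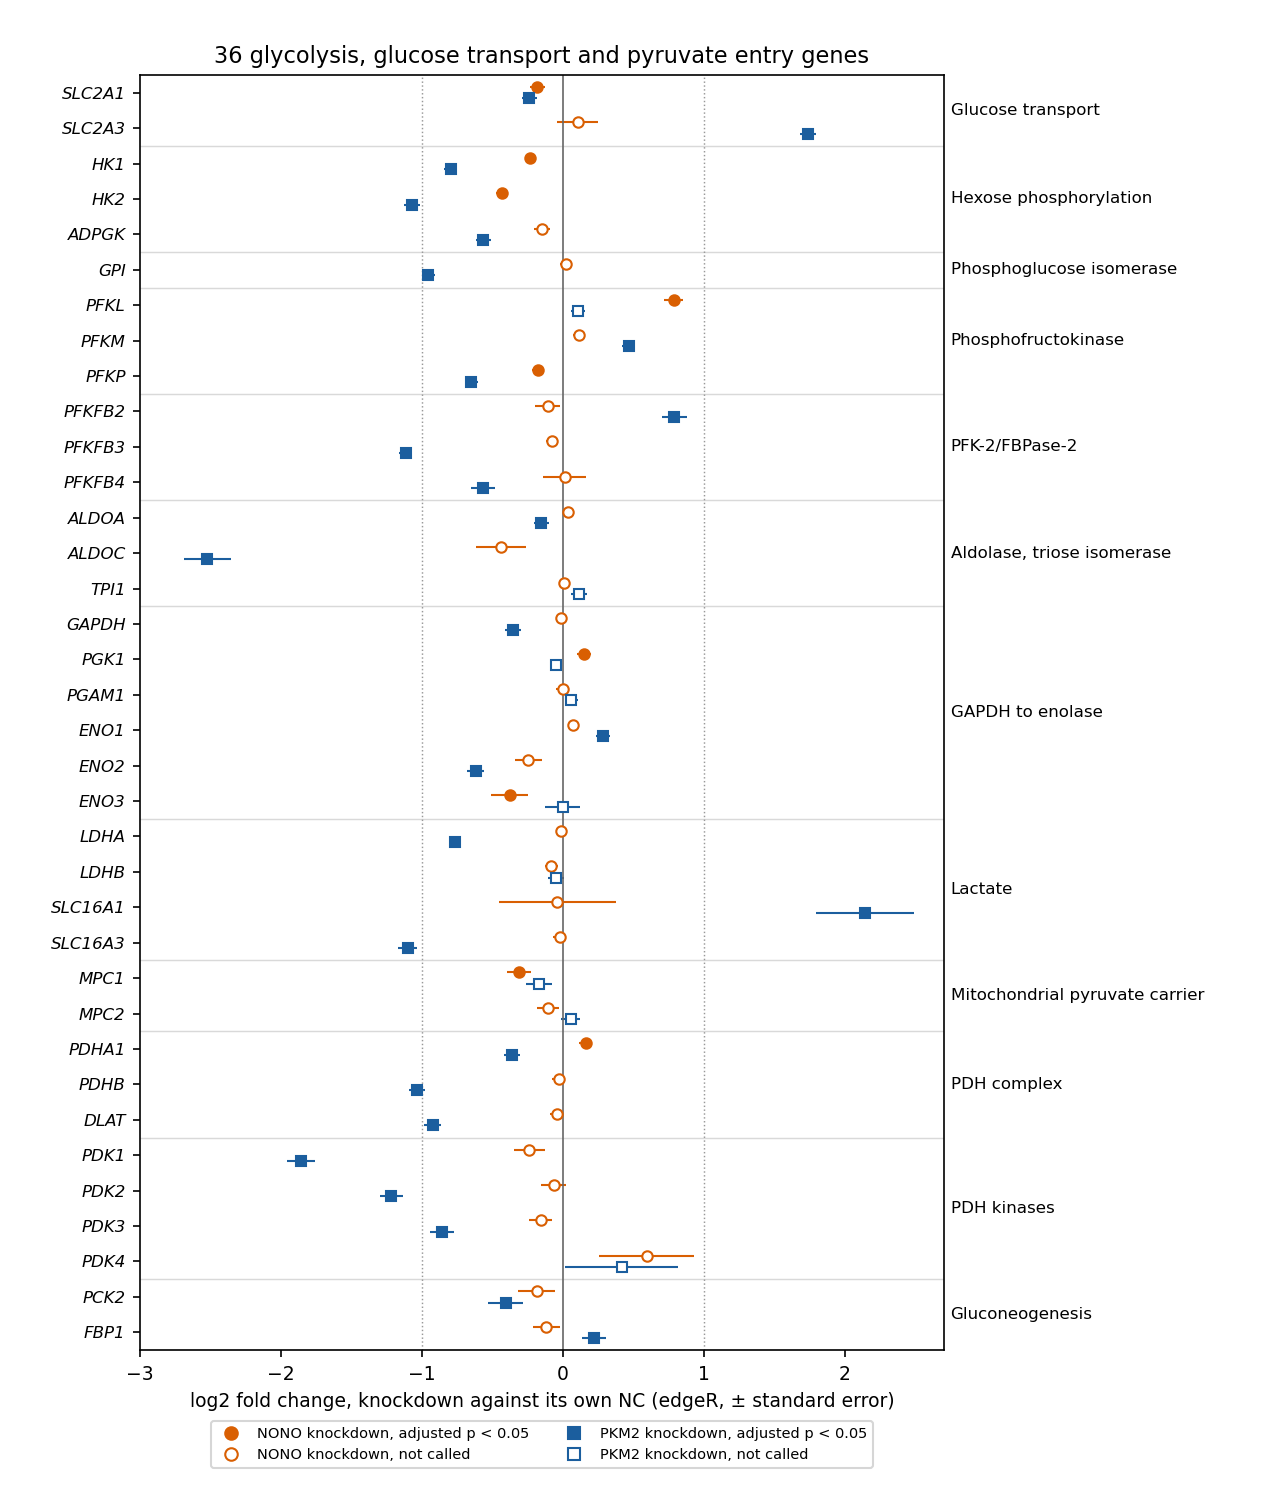
The log2 fold change of each of the 36 genes after NONO knockdown (circles) and PKM2 knockdown (squares), by pathway step, with its standard error, filled where the adjusted P was below 0.05 and with dotted lines at a fold change of 2. The squares spread from -2.52 for ALDOC to 2.15 for SLC16A1, while the circles lie between -0.44 for ALDOC and 0.79 for PFKL.

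Whether a member responded differently was tested directly, as the PKM2 change minus the NONO change in 1 edgeR fit over the 12 libraries. The difference was called for 27 of the 36 members (75%, against 53.1% of 15995 genes), and it was negative for 21 (against 27.4% of all genes) and positive for 6 (against 25.7%). It was not called for TPI1, PGAM1, ENO3, LDHB, SLC2A1, PDK4, MPC1, MPC2 and PCK2. For SLC2A1 the log2 difference was -0.070 with a standard error of 0.078, and for LDHB it was 0.023 with a standard error of 0.079. The difference for SLC2A1 was called by limma on log2(TPM + 1), at -0.58 (adjusted P = 0.00334), and by the other fits to TPM, so that this gene depended on the scale. That of ENO3 was called by limma on log2(TPM + 1) and in 2 fits without 1 library. HK1, HK2, PFKP and SLC2A1 were lowered by both knockdowns, and PDHA1 was the member called in opposite directions.

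Of the glucose transporter genes, SLC2A1, which encodes the widespread transporter GLUT1, was the more abundant by TPM. It stood at 207, 232 and 224 CPM in the NC libraries of the NONO experiment and at 203, 196 and 185 after knockdown. In the PKM2 experiment it stood at 203, 199.5 and 219 CPM in NC and at 166, 179.7 and 180 after knockdown. The groups did not overlap in either experiment, and the log2 fold changes were -0.18 (adjusted P = 0.0203) and -0.24 (adjusted P = 0.00177). The first call was lost in 4 of 6 fits that left out a library and with limma on TPM. The second change was -0.14 once trends with gene length and GC content were removed. By TPM the log2 ratios of the group means were -0.047 and -0.62, farther apart than on the count scale.

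SLC2A3 encodes GLUT3, a transporter of high affinity known from neurons, and lies on chromosome 12 from 7919230 to 7936275 of GRCh38. In the PKM2 experiment it stood at 30.1, 31.1 and 31.3 CPM in NC libraries and at 99.8, 106 and 103 after knockdown. The groups were far apart, with a log2 change of 1.74 (SE 0.054, adjusted P = 3.09e-10). The groups overlapped in the NONO experiment, at 29.5, 49.5 and 45.8 CPM in NC against 46.2, 46.6 and 41.6 after knockdown, with a log2 change of 0.10. SLC2A3 held 7.1% ± 0.22 of the summed TPM of the pair in NC libraries and 25.95% ± 0.77 after PKM2 knockdown (SD, n = 3 each). Rows for pseudogene copies of SLC2A3 held up to 4.40% of its own counts in the PKM2 libraries and up to 16.8% in the NONO libraries. The near-identical gene SLC2A14 held at most 2 counts in any library.

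At hexose phosphorylation both knockdowns lowered HK1 and HK2. HK1, the housekeeping hexokinase, stood at 459, 459 and 459 CPM in NC and at 392, 396 and 385 after NONO knockdown, a log2 change of -0.23 (adjusted P = 0.000577). After PKM2 knockdown it fell from 450.1, 437 and 455 CPM to 262, 259 and 252, a log2 change of -0.80 (adjusted P = 1.96e-08). HK2 (chromosome 2 from 74833981 to 74893359) stood at 193, 192 and 203 CPM in NC and at 144, 146 and 145 after NONO knockdown, a log2 change of -0.44 (SE 0.041, adjusted P = 1.97e-05). In the PKM2 experiment HK2 stood at 179, 174 and 179 CPM in NC and at 82.8, 90.4 and 79.6 after knockdown, a log2 change of -1.07 (SE 0.055, adjusted P = 1.2e-08). NC and knockdown libraries did not overlap for either gene in either experiment, and these 4 calls were kept in each refit without a library and with each other tool or filter.

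The fall was larger after PKM2 knockdown for both genes, with log2 differences of -0.58 for HK1 (adjusted P = 1.36e-07) and -0.65 for HK2 (adjusted P = 5.88e-07). The share of HK2 in the summed TPM of the pair went from 20.5% ± 0.28 to 18.3% ± 0.3 after NONO knockdown, and from 19.8% ± 0.1 to 16.7% ± 0.93 after PKM2 knockdown (SD, n = 3 each). ADPGK, which phosphorylates glucose with ADP, was lowered after PKM2 knockdown (log2 fold change -0.57), and its change of -0.15 after NONO knockdown was not called in edgeR (adjusted P = 0.06) but was in limma on log2(TPM + 1) (-0.22, adjusted P = 0.0461). GPI, the isomerase that turns glucose phosphate into fructose phosphate, fell from 374, 362 and 375 CPM to 184, 196 and 192 after PKM2 knockdown, a log2 change of -0.96 (adjusted P = 6.92e-09). After NONO knockdown its log2 fold change was 0.019.

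At phosphofructokinase, the committing step, the isoenzymes moved in different directions. PFKL, the liver-type subunit (chromosome 21 from 44300051 to 44327376), stood at 82.6, 98.7 and 99.7 CPM in NC and at 162, 168 and 155 after NONO knockdown. All 3 knockdown libraries lay above all NC libraries, and the log2 fold change of 0.79 (SE 0.068, adjusted P = 9.71e-06) was the highest of the list in that experiment. After PKM2 knockdown the change of PFKL was 0.11 and was not called (adjusted P = 0.0726), and it was 0.42 once the trends with gene length and GC content were removed. PFKM, the muscle-type subunit, was raised after PKM2 knockdown (log2 fold change 0.47, adjusted P = 3.02e-06) and had a change of 0.11 after NONO knockdown (adjusted P = 0.0714).

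PFKP, the platelet-type subunit and by TPM the most abundant of the 3, was lowered by both knockdowns, with log2 fold changes of -0.18 (adjusted P = 0.00309) and -0.65 (adjusted P = 1.29e-07). Its share of the summed TPM of the 3 genes went from 73.98% ± 1.74 to 64.8% ± 0.81 after NONO knockdown and from 77.4% ± 0.42 to 62.8% ± 1.22 after PKM2 knockdown (SD, n = 3 each). In the NONO experiment the share of PFKL went from 10.5% ± 0.56 to 17.3% ± 0.58 and that of PFKM from 15.5% ± 1.21 to 17.9% ± 1.25. In the PKM2 experiment PFKM went from 13.4% ± 0.1 to 24.8% ± 1.63 and PFKL from 9.21% ± 0.52 to 12.4% ± 0.43. Shares are given as a description and were not tested. An exact permutation test of 3 against 3 libraries cannot give a P below 0.1.

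The PFKFB genes encode enzymes that make and break the fructose bisphosphate that activates phosphofructokinase. PFKFB3, a form with high kinase activity (chromosome 10 from 6144934 to 6254644), stood at 232, 229 and 234 CPM in NC and at 109, 109.8 and 102 after PKM2 knockdown. The groups were far apart, with a log2 change of -1.12 (SE 0.048, adjusted P = 2.83e-09). In the NONO experiment 265, 279 and 283 CPM in NC overlapped with 255, 269 and 257 after knockdown (log2 fold change -0.081). PFKFB4 was lowered after PKM2 knockdown as well (-0.57, adjusted P = 8.11e-05), and PFKFB2, known from heart, was raised (0.79, adjusted P = 7.58e-06). PFKFB2 went from 4.09% ± 0.52 to 16.3% ± 1.79 of their summed TPM and PFKFB3 from 81.4% ± 1.87 to 67.04% ± 1.07 (SD, n = 3 each). None of the 3 was called after NONO knockdown in a fit to all 6 libraries.

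**Figure D2:**
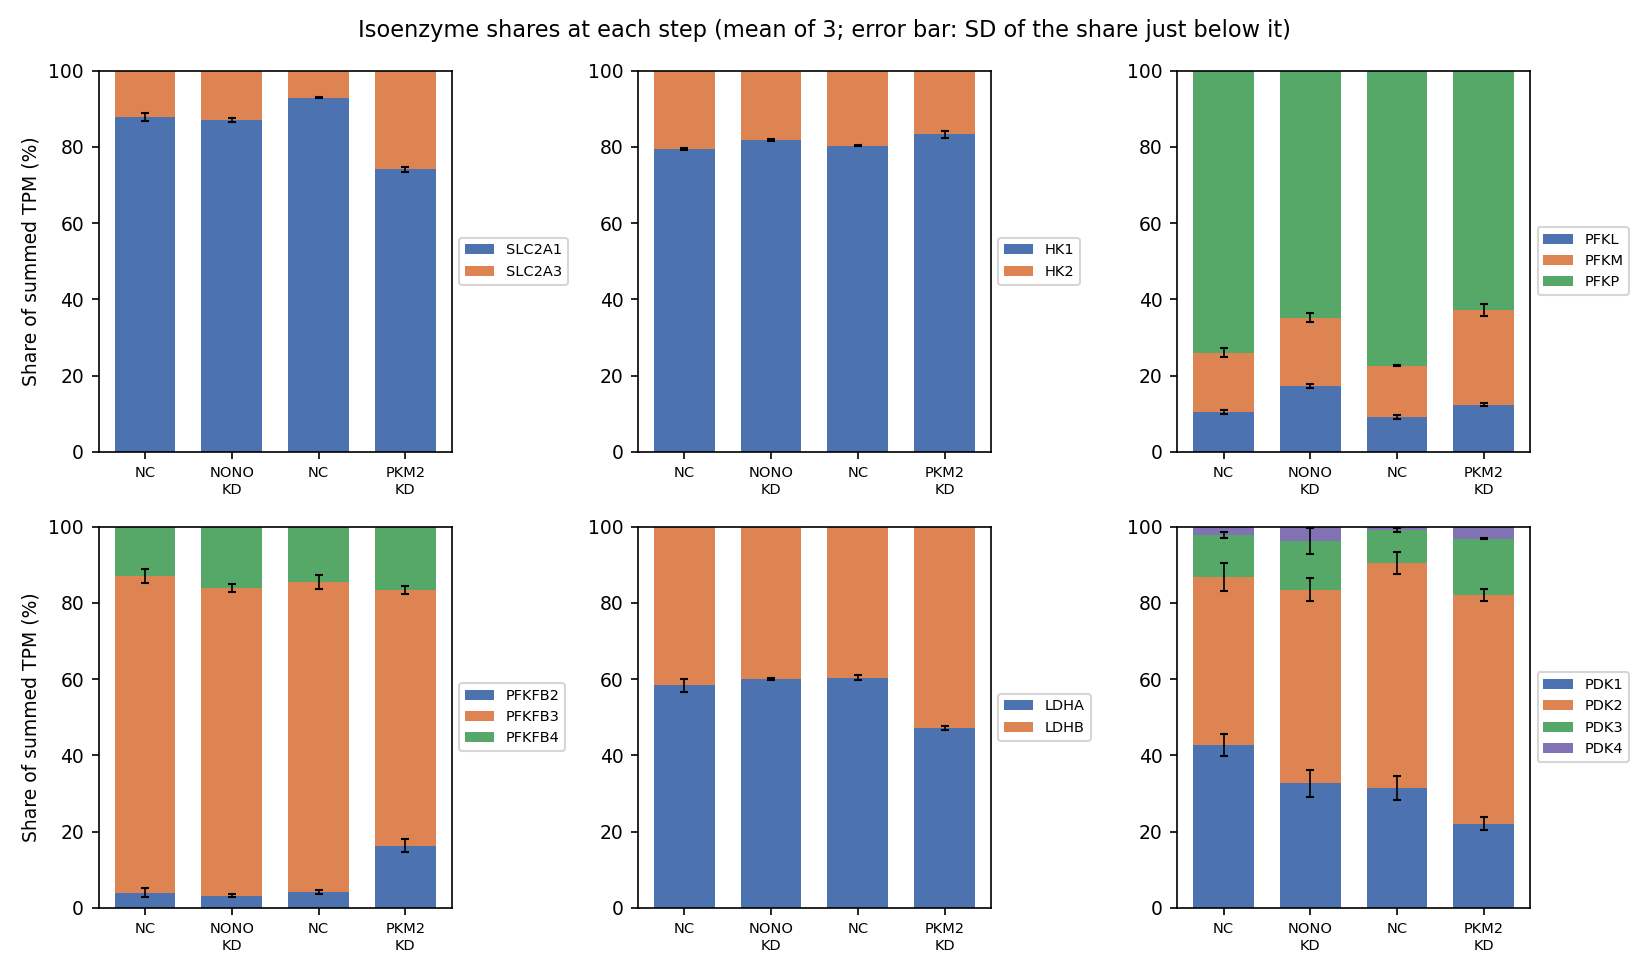
Shares of isoenzymes in the summed TPM of their step (percent, mean of 3 libraries, with the SD of the share just below each error bar), for the NC and knockdown (KD) groups of the NONO experiment on the left and the PKM2 experiment on the right of each panel. After PKM2 knockdown SLC2A3 stood at 25.95%, PFKM at 24.8% and PFKFB2 at 16.3%, and LDHA went from 60.4% to 47.2%.

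Of the aldolases, ALDOA held 98.8% ± 0.17 of the summed TPM of the pair in the NC libraries of the PKM2 experiment (SD, n = 3). ALDOC (chromosome 17 from 28573115 to 28577264) had the lowest log2 fold change of the list. It stood at 18.1, 16.4 and 22.3 CPM in NC and at 2.57, 3.18 and 4.08 after PKM2 knockdown, a log2 change of -2.52 (SE 0.17, adjusted P = 8.63e-08). In the NONO experiment the values were 13.7, 22.4 and 21.03 CPM in NC and 16.9, 13.8 and 11.4 after knockdown. There the groups overlapped through NC replicate 1, and the log2 fold change of -0.44 was not called (adjusted P = 0.0816) but was -0.62 without that library (adjusted P = 0.000196). It was also called by DESeq2 (adjusted P = 0.0495), without the low-count filter and without knockdown replicate 1. ALDOA changed by -0.16 after PKM2 knockdown (adjusted P = 0.0229). That call was lost in 4 of 6 fits that left out a library, and the change turned to 0.078 once the trends with gene length and GC content were removed. Of the ALDOA exon bases, 42.3% are shared with AC093512.2 on the same strand.

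From triose phosphate to phosphoenolpyruvate, TPI1 and PGAM1 were called in neither experiment in edgeR with all libraries. TPI1 had log2 fold changes of 0.006 after NONO knockdown and 0.11 after PKM2 knockdown, and PGAM1 of -0.002 and 0.059. After PKM2 knockdown TPI1 was called as raised by DESeq2 (adjusted P = 0.0489) and without knockdown replicate 1, while its TPM ratio was -0.011 on the log2 scale. PGK1, which makes the first ATP of the pathway, was raised after NONO knockdown (0.15, adjusted P = 0.0357, lost in 3 of 6 fits that left out a library and in limma) and had a change of -0.050 after PKM2 knockdown. The latter was not called in edgeR (adjusted P = 0.35) but was in limma on log2(TPM + 1), at -0.21 (adjusted P = 0.000697), and in the other fits to TPM. GAPDH, often used as a reference gene, was the most abundant member, with 4371 ± 98.2 TPM and 4457 ± 175 TPM in the NC libraries of the NONO and PKM2 experiments (SD, n = 3 each). After PKM2 knockdown it fell from 3266, 3283 and 3515 CPM to 2435, 2646 and 2800, a log2 change of -0.35 (SE 0.056, adjusted P = 0.000138). Its change after NONO knockdown was -0.013, with overlapping groups.

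Enolase isoenzymes moved in different directions after PKM2 knockdown. ENO1, the main form, was raised from 2085, 2080 and 2136 CPM to 2434, 2541 and 2696, a log2 change of 0.28 (adjusted P = 0.0002). ENO2, the neuronal form, was lowered (-0.62, adjusted P = 1.67e-06), and its share of enolase TPM went from 4.48% ± 0.11 to 2.44% ± 0.16 (SD, n = 3 each). ENO3, the muscle form, stood at 7.38, 9.44 and 8.74 CPM in NC and at 7.13, 6.36 and 6.20 after NONO knockdown, a called fall of -0.38 (adjusted P = 0.0471) that was lost in 5 of 6 fits without a library and with DESeq2. After PKM2 knockdown ENO3 had a log2 change of -0.002 with a standard error of 0.12.

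The last step to pyruvate is catalyzed by the product of PKM itself. After NONO knockdown PKM was raised from 2195, 2159 and 2177 CPM to 2595, 2630 and 2579, a log2 change of 0.26 (adjusted P = 0.000122). Its own knockdown gave a log2 change of -3.32 (adjusted P = 7.03e-12).

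At the lactate step, LDHA was lowered after PKM2 knockdown and LDHB was not called in edgeR with all libraries. LDHA, which encodes the subunit that favors lactate formation, went from 1982, 1916 and 1977 CPM to 1123, 1156 and 1174, a log2 change of -0.77 (SE 0.042, adjusted P = 1.96e-08). LDHB, the heart-type subunit, stood at 928, 886 and 889.7 CPM in NC and at 823, 847 and 944 after knockdown, with overlapping groups and a log2 change of -0.048 (SE 0.055, adjusted P = 0.461). The change was -0.27 with the trends removed, and LDHB was called as lowered by limma on TPM. It was also called as lowered in edgeR without knockdown replicate 3 (-0.10, adjusted P = 0.0153). LDHA held 60.4% ± 0.59 of their summed TPM in NC libraries and 47.2% ± 0.45 after PKM2 knockdown (SD, n = 3 each), so that LDHB then had the larger share. Computed from CPM, which is not per length, the LDHA share went from 68.5% ± 0.44 to 56.95% ± 1.31 and remained the larger. Of the LDHB exon bases, 33.4% are shared with AC010197.2 on the same strand, and reads there cannot be assigned with certainty. After NONO knockdown the changes of LDHA (-0.016) and LDHB (-0.084) were not called.

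Lactate leaves the cell through monocarboxylate transporters. SLC16A3, which encodes the exporter MCT4 (chromosome 17 from 82228397 to 82261129), stood at 399.6, 394 and 433 CPM in NC and at 171, 193 and 208 after PKM2 knockdown. The groups did not overlap, and the log2 change was -1.10 (SE 0.069, adjusted P = 5.79e-08). NONO libraries overlapped, with 396, 435 and 419.8 CPM in NC and 415, 418 and 397 after knockdown. SLC16A1, which encodes MCT1, had the lowest TPM of the list in NC libraries, with 6 to 11 counts per NC library and 30 to 37 after PKM2 knockdown. These are 0.375, 0.318 and 0.212 CPM against 1.53, 1.33 and 1.19 CPM, a log2 change of 2.15 (SE 0.35, adjusted P = 0.000173). After knockdown SLC16A1 held 0.3% ± 0.08 of the summed TPM of the pair (SD, n = 3). Its groups overlapped in the NONO experiment, at 1.05, 0.429 and 0.608 CPM in NC against 0.748, 0.763 and 0.509 after knockdown.

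**Figure D3:**
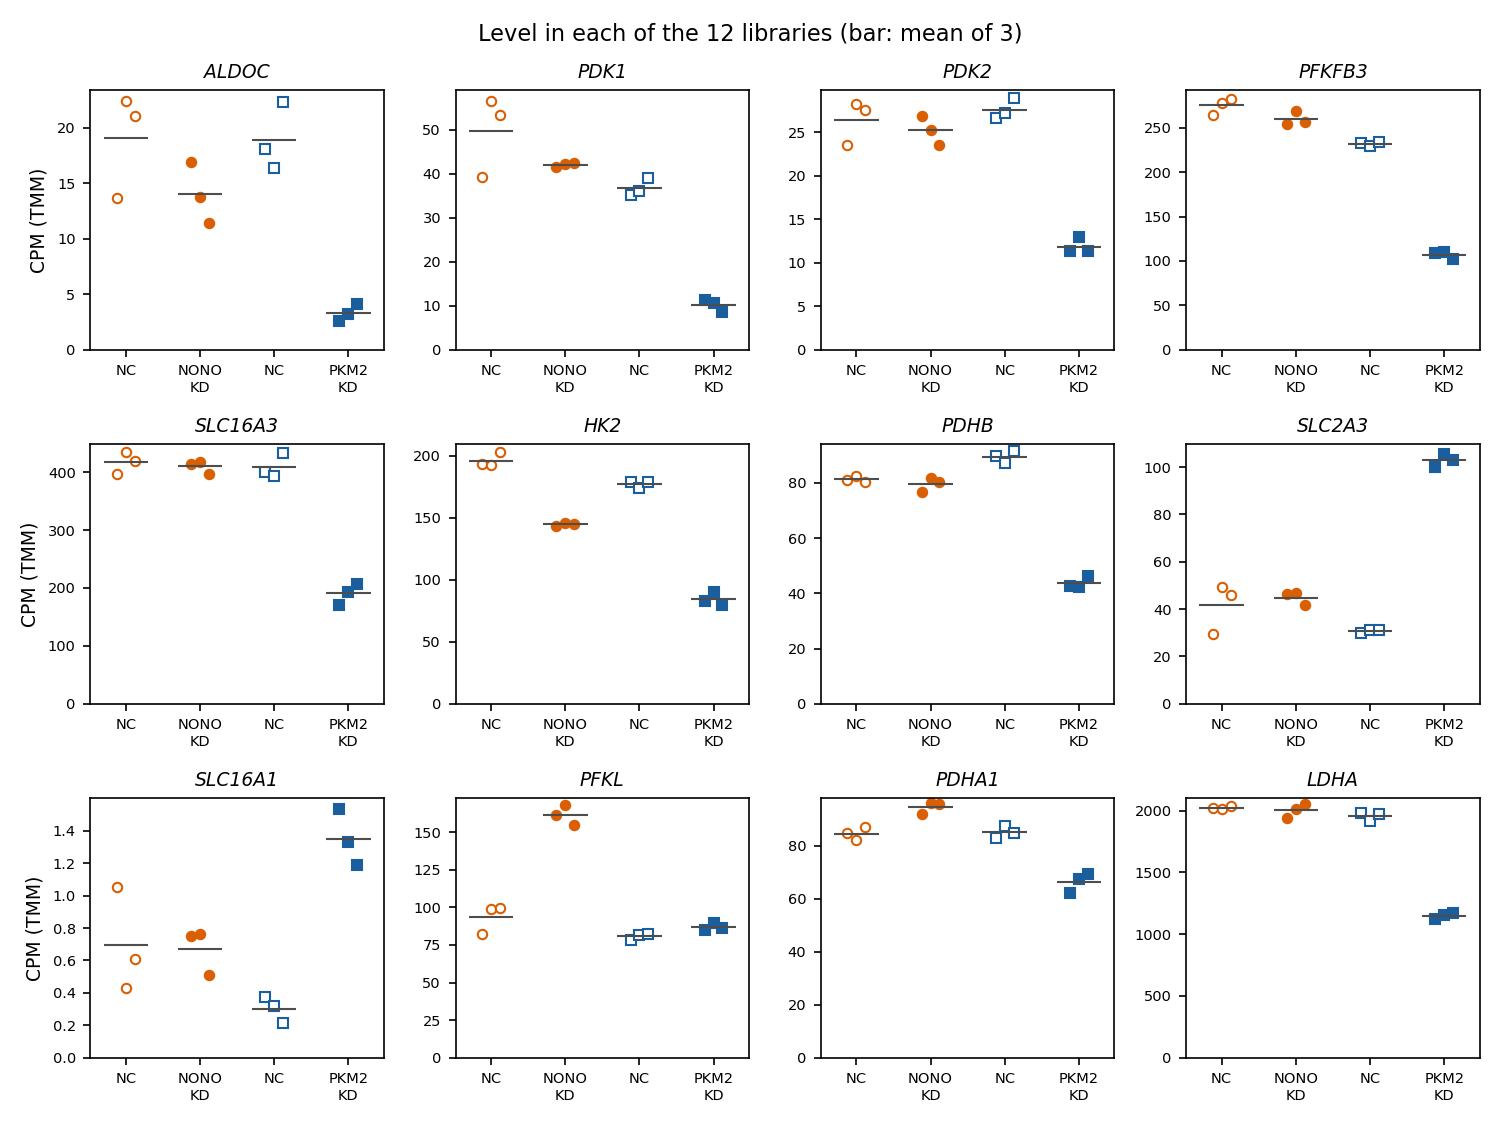
Level of 12 members in every library (CPM after TMM scaling, each axis from 0), for the NC (open) and knockdown (filled) libraries of the NONO experiment (circles) and the PKM2 experiment (squares), with the mean of 3 as a bar. After NONO knockdown PFKL lies between 155 and 168 CPM, above its NC libraries, and the PKM2 knockdown libraries of ALDOC lie between 2.57 and 4.08 CPM, under theirs.

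Pyruvate enters mitochondria through a carrier of MPC1 and MPC2. Neither was called after PKM2 knockdown in edgeR with all libraries, with log2 fold changes of -0.17 and 0.054. MPC1 was then called as lowered by limma on log2(TPM + 1), at -0.28 (adjusted P = 0.0113), by the other fits to TPM and without knockdown replicate 3, and its change was -0.44 with the trends removed. After NONO knockdown MPC1 was lowered from 27.4, 22.7 and 25.2 CPM to 19.1, 20.04 and 21.4 (-0.31, adjusted P = 0.0175), a call lost in 3 of 6 fits without a library, and MPC2 was not called (-0.11, adjusted P = 0.321).

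All 3 genes of the PDH complex in the list were lowered after PKM2 knockdown. PDHB (chromosome 3 from 58427630 to 58433857) stood at 89.8, 87.3 and 91.4 CPM in NC and at 42.5, 42.3 and 46.4 after knockdown, a log2 change of -1.03 (SE 0.057, adjusted P = 1.98e-08). DLAT, the acetyltransferase core, had 122, 123 and 123 CPM in NC and 67.2, 67.8 and 59.02 after knockdown (-0.93, adjusted P = 7.08e-08). PDHA1, the alpha subunit that PDH kinases phosphorylate, stood at 83.03, 87.3 and 84.8 CPM in NC and at 62.04, 67.5 and 69.3 after PKM2 knockdown, a log2 change of -0.36 (adjusted P = 0.000136). The libraries of the groups did not overlap for any of the 3. The remaining subunit genes of the complex, which are not members and are named after their values were seen, moved the other way. PDHX, which binds the dihydrolipoamide dehydrogenase to the core, rose from 57.6, 61.6 and 59.4 CPM to 101, 97.8 and 107 after PKM2 knockdown (0.77, adjusted P = 1.55e-07), and was lowered after NONO knockdown (-0.18, adjusted P = 0.0189). DLD, the dehydrogenase, was raised after PKM2 knockdown (0.16, adjusted P = 0.0137).

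PDHA1 was raised by the other knockdown. In the NONO experiment it stood at 84.7, 82.01 and 86.9 CPM in NC and at 91.8, 96.1 and 95.8 after knockdown, a log2 change of 0.16 (adjusted P = 0.0187). That rise was lost in 3 of 6 fits without a library, while the log2 difference between the knockdowns, -0.53 (adjusted P = 1.11e-05), was called in all 12 such fits. PDHB and DLAT had overlapping groups after NONO knockdown, with changes of -0.030 and -0.045. Of the PDHA1 exon bases, 21.3% overlap MAP3K15 on the opposite strand.

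Of the PDH kinase genes, which encode inhibitors of the complex, PDK1, PDK2 and PDK3 fell after PKM2 knockdown. PDK1 (chromosome 2 from 172555373 to 172608669) stood at 35.1, 36.1 and 38.95 CPM in NC and at 11.4, 10.5 and 8.52 after knockdown, a log2 change of -1.86 (SE 0.099, adjusted P = 1.52e-08). PDK2 (chromosome 17 from 50094737 to 50112152) went from 26.6, 27.2 and 28.9 CPM to 11.3, 12.9 and 11.3, a log2 change of -1.22 (SE 0.082, adjusted P = 1.01e-07). Its exons overlap those of SAMD14 on the opposite strand over 38.6% of their bases, and the sources do not state that reads were counted by strand. PDK3 went from 19.6, 22.6 and 20.4 CPM to 11.6, 11.9 and 10.9 (-0.86, adjusted P = 3e-06). That call was lost with limma on log2(TPM + 1) without a filter (adjusted P = 0.0783), and the log2 ratio of mean PDK3 TPM was -0.58. PDK4, known from starvation, stood at 0.410, 1.27 and 1.06 CPM in NC and at 1.41, 0.903 and 1.31 after knockdown and was not called (0.42, SE 0.40).

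After NONO knockdown no PDH kinase gene was called in edgeR with the low-count filter and all 6 libraries. PDK1 stood at 39.1, 56.5 and 53.3 CPM in NC and at 41.6, 42.2 and 42.5 after knockdown, so that NC replicate 1 lay under the knockdown libraries and the other NC libraries above them. Its log2 fold change was -0.24 (adjusted P = 0.119) and -0.37 without that library (adjusted P = 1.56e-05). PDK1 was called as lowered without the low-count filter (adjusted P = 0.00536) and by limma on log2(TPM + 1), at -0.59 (adjusted P = 0.0395). The share of PDK1 in the summed TPM of the 4 genes went from 42.7% ± 2.96 to 32.7% ± 3.52 after NONO knockdown and from 31.5% ± 3.11 to 22.04% ± 1.69 after PKM2 knockdown (SD, n = 3 each). From CPM the shares in the NONO experiment overlapped, at 48.97% ± 2.33 against 46.3% ± 0.85.

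Of the gluconeogenic members, PCK2, the mitochondrial carboxykinase, was lowered after PKM2 knockdown (-0.41, adjusted P = 0.012). Its change was -0.18 once the trends with gene length and GC content were removed, and the call was lost without NC replicate 3. FBP1, which undoes the phosphofructokinase step, was raised (0.22, adjusted P = 0.0354), a call that was lost in 5 of 6 fits without a library and with DESeq2 and limma. Neither was called after NONO knockdown in a fit to all 6 libraries.

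The dependence on NC replicate 1 of the NONO experiment concerned a set of named members. In that library ALDOC, ENO2, PFKFB4, PDK1, PCK2 and SLC2A3 had log2 ratios between -0.72 and -0.45 to the mean of the other NC libraries, and PDK4 had -1.67. Without the library, ALDOC (-0.62), ENO2 (-0.37), PDK1 (-0.37), PCK2 (-0.32), PDK3 (-0.20), PFKFB4 (-0.18) and PFKFB3 (-0.099) became lowered, and PFKM (0.13) and ENO1 (0.073) raised. With all 6 libraries, ENO2 was also called by DESeq2 (adjusted P = 0.0378) and without the low-count filter. Why that library differed was not tested.

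**Figure D4:**
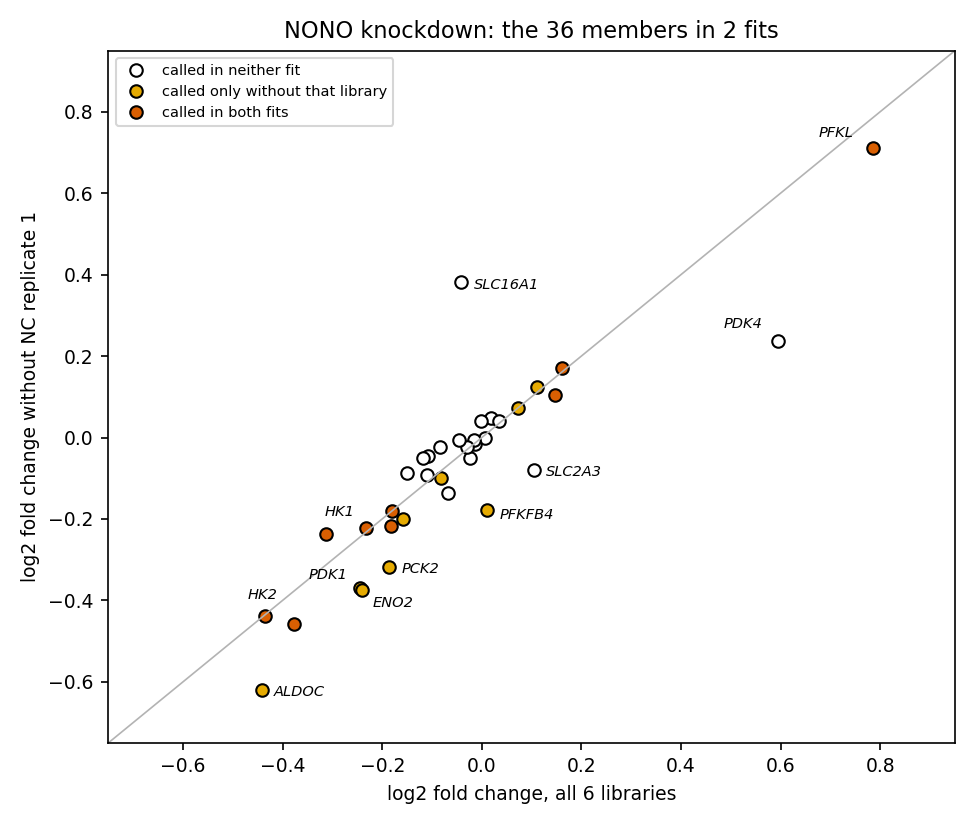
The log2 fold change of the 36 genes after NONO knockdown with all 6 libraries (horizontal) and without NC replicate 1 (vertical), with a line of equality and colors for the calls at an adjusted P below 0.05. ALDOC moves from -0.44 to -0.62 and PFKFB4 from 0.011 to -0.18, while HK2 lies at -0.44 and -0.44.

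Summed, the 36 genes held 1.548% ± 0.03 of the library TPM in NC libraries and 1.207% ± 0.02 after PKM2 knockdown (SD, n = 3 each). They held 1.434% ± 0.022 and 1.38% ± 0.02 in the NONO experiment. LDHA and LDHB together went from 0.299% ± 0.004 to 0.199% ± 0.004 after PKM2 knockdown, and the 3 PDH genes from 0.029% to 0.017%. The 6 genes from GAPDH to the enolases went from 0.779% ± 0.024 to 0.658% ± 0.015. After PKM2 knockdown the median log2 change over all genes was -0.094 in limma on log2(TPM + 1), against -0.015 in edgeR on counts. After NONO knockdown these medians were -0.053 and -0.011. The summed TPM values were not adjusted for this difference in scale.

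Other genes of the pathway were taken from a list of 37, of which 22 passed the filter on low counts in each experiment. After PKM2 knockdown 11 of them were lowered, 9 were raised and 2 were not called, against 34.7% lowered and 33.6% raised among all genes. After NONO knockdown 6 were lowered, 4 raised and 12 not called, against 17.2% and 16.2%. Besides PKM, those called with a fold change above 2 in either experiment were HKDC1, LDHD, SLC2A4, SLC2A6, PDPR and PGM1. HKDC1, a further hexokinase gene, rose from 9.08, 7.51 and 8.15 CPM to 30.5, 31.6 and 33.4 after PKM2 knockdown (log2 fold change 1.95, adjusted P = 4.04e-09). It moved the other way after NONO knockdown, from 9.08, 7.58 and 8.13 CPM to 4.94, 4.12 and 4.78 (-0.84, adjusted P = 0.000759). PGM1, which links glycolysis to glycogen, fell from 85.1, 84 and 87.7 CPM to 23.7, 22.2 and 24.1 (-1.87, adjusted P = 3.26e-10). SLC2A6, which encodes GLUT6, fell from 24.4, 24.1 and 24.3 CPM to 3.81, 4.60 and 4.64 (-2.48, adjusted P = 1.52e-09).

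PDPR, a regulatory subunit of PDH phosphatase, was lowered after PKM2 knockdown (-1.10, adjusted P = 8.62e-07). PDP1, a catalytic subunit of that phosphatase named after its values were seen, was raised by both knockdowns (0.57, adjusted P = 0.00108, and 0.81, adjusted P = 2.71e-07). PDP2, another catalytic subunit named in the same way, was lowered after NONO knockdown (-0.25, adjusted P = 0.00764). It was raised after PKM2 knockdown (0.29, adjusted P = 0.00137). LDHD, which acts on D-lactate, was lowered by both knockdowns (-1.32 and -2.72), with at most 1.86 CPM in any library. SLC2A4, which encodes the insulin-responsive transporter GLUT4, stood at 1.02, 0.914 and 1.48 CPM in NC and at 0.124, 0.0430 and 0 after PKM2 knockdown, where it was called as lowered (adjusted P = 5.98e-05). After NONO knockdown 0.903, 1.29 and 0.935 CPM in NC against 0.249, 0.559 and 0.814 did not pass the test (adjusted P = 0.106).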

How the data were processed

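Libraries were prepared from poly(A) RNA with a TruSeq kit and sequenced as paired 150-base reads. For each experiment the authors deposited 1 table with estimated counts (expected counts, not whole numbers) and TPM per gene and library. The submitters' processing notes name fastp, HISAT2, StringTie, RSEM, DESeq2, edgeR, limma and hg19, without versions or order. The same tables hold the authors' pooled TPM, fold changes and P values of their own comparisons, and these were not used. The deposited TPM values were used for shares and levels and for limma.

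Estimated counts were rounded to whole numbers. Each experiment was fitted alone with edgeR 4.0.16 (R 4.3.3, TMM scaling, filterByExpr, quasi-likelihood test, no block), and the difference between the knockdowns over all 12 libraries. P values were adjusted by Benjamini-Hochberg over all genes tested, and a gene was called at an adjusted P below 0.05. Standard errors are the log2 fold change divided by the square root of F. Alternatives were DESeq2 1.42.0, limma 3.58.1 on log2(TPM + 1) or log2(TPM + 0.1) with and without a mean TPM minimum of 1, RLE size factors, no low-count filter, the replicate block, a fold change of at least 1.5, removal of trends with length and GC content over 20 bins, and each library left out. The scripts were tested on simulated data.

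Full values per library are given for members past a fold change of 2 and for those called in opposite directions, and for further members of each step that were chosen after their values were seen. Other pathway genes are named when called with a fold change above 2. Members and lists were chosen with earlier results of these data known. Gene positions and exon overlaps are from GENCODE 29 (GRCh38) and were used for location only, since the build of the counts is named as hg19. At these depths a count of a few reads, as for SLC16A1, limits the precision of a fold change.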

Additional observations from a re-analysis of the deposited data

Results flagged for a closer look

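These 27 members were listed because the test of the difference itself, the PKM2 change minus the NONO change on the log2 scale (edgeR, adjusted P below 0.05), was passed. For the glucose transport and hexose steps, the difference was 1.62 for SLC2A3, -0.58 for HK1, -0.65 for HK2, -0.43 for ADPGK and -0.99 for GPI. For the phosphofructokinase genes and their regulators, the difference was -0.69 for PFKL, 0.34 for PFKM, -0.48 for PFKP, 0.89 for PFKFB2, -1.05 for PFKFB3 and -0.59 for PFKFB4. For the aldolase to enolase steps, the difference was -0.20 for ALDOA, -2.10 for ALDOC, -0.35 for GAPDH, -0.21 for PGK1, 0.20 for ENO1 and -0.39 for ENO2. For the lactate step, the difference was -0.76 for LDHA, 2.17 for SLC16A1 and -1.09 for SLC16A3. For the PDH complex and its kinases, the difference was -0.53 for PDHA1, -1.02 for PDHB, -0.89 for DLAT, -1.63 for PDK1, -1.16 for PDK2 and -0.71 for PDK3. For the gluconeogenic gene FBP1 it was 0.33, a call that was lost in 9 of 12 fits without 1 library and with DESeq2, without the low-count filter, with the replicate block and with limma without a filter. The calls of PFKM and PDK3 were lost in each fit of limma to TPM, where their highest adjusted P was 0.25 and 0.388. Those of ENO1, ENO2 and SLC16A1 were lost with limma without a filter, that of ALDOA in 2 of 12 fits without 1 library, and that of PGK1 in 1 of 12. The other 19 differences were called in every refit that tested them. The knockdowns were compared across separate experiments with separate NC libraries, so the experiment and the knockdown cannot be told apart except through each experiment's own NC libraries. With 3 libraries per group, no test of single libraries within groups was made.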

How the results depend on the processing

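Of the 27 members called after PKM2 knockdown, 24 were called without any 1 library and 23 under every other tool and filter too, against 4 and 4 of the 9 called after NONO knockdown (HK1, HK2, PFKL and PFKP) and 24 and 19 of the 27 differences. Leaving out 1 library gave 3 to 13 lowered and 1 to 5 raised members after NONO knockdown, with 13 and 5 without NC replicate 1, 3 lowered without NC replicate 3, 3 lowered and 1 raised without knockdown replicate 2, and 1 raised without knockdown replicate 3. It gave 19 to 23 lowered and 5 to 7 raised members after PKM2 knockdown. A fold change of at least 1.5 left 0 lowered and 1 raised member after NONO knockdown, since fewer members pass it by construction. After PKM2 knockdown it left 14 lowered and 3 raised. The share of all genes past that cutoff was not computed. With limma on log2(TPM + 1) without a filter, 1 member was raised after NONO knockdown, against 2.13% of 27378 genes in that fit. The cause of this lower count was not tested. With trends with length and GC content removed, 21 of the 36 log2 changes after PKM2 knockdown moved by more than their standard error (MPC1 from -0.17 to -0.44) and ALDOA turned from -0.16 to 0.078, while 4 moved after NONO knockdown. With the replicate block, NONO knockdown lowered 5 members and raised 3, against 15.3% and 14% of 14832 genes. PKM2 knockdown then lowered 21 and raised 6, against 34.5% and 33.3% of 15524 genes. No pairing by replicate number was seen. The correlations of same-numbered NC and knockdown deviations were -0.116, 0.047 and -0.065 in the NONO experiment and -0.072, 0 and 0.043 in the PKM2 experiment. With 3 libraries per group such values cannot show whether same-numbered samples were handled together. The number of members past a fold change of 2 was 0 after NONO knockdown and 9 to 11 after PKM2 knockdown in each refit, and 6 after PKM2 knockdown with the trends removed. Low counts limit SLC16A1 and PDK4.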
